A study of Mus musculus with 10 samples.

Results

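Histone genes code for the proteins that package DNA, and they are described here across all 5 groups of a study of mouse embryonic stem cells (ESCs) and neural progenitor cells (NPCs). Genes were taken by symbol: linker histones (H1), core histones (H2A, H2B, H3 and H4) and their variants, with the older Hist symbols matched to present ones and pseudogenes left out. This gave 85 coding genes, of which 84 had a row among the 24520 genes of the deposited table. Of these, 67 were clustered histone genes, named by cluster number, and 17 were variant histone genes, named singly. The classes rest on symbols alone: H3f4 counts as variant here, though it lies next to the clustered gene H2aw on chromosome 11. By family there were 10 genes of H1, 28 of H2A, 18 of H2B, 15 of H3 and 13 of H4, with 55 on chromosome 13 and 11 on chromosome 3.

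All cells were V6.5, a mouse ESC line, and every group carried a siRNA. ESCs received either the luciferase control siRNA or Cbx3 siRNA, and NPCs derived from them received the luciferase control, Cbx3 or Med26 siRNA. Cbx3 encodes HP1 gamma, a chromatin protein, and Med26 is a subunit of the Mediator complex. Each of the 5 groups had 2 RNA-seq libraries that the labels call biological replicates. For the NPCs, embryoid bodies were grown for 4 days and plated as single cells in ITSF medium, siRNA was given on day 5 and RNA was collected on day 8. ESCs were kept on irradiated mouse embryonic fibroblasts (MEFs) with LIF, and the siRNA timing for ESCs is not given separately. Whether the 2 libraries of a group came from separate transfections is not stated, so p-values reflect the spread between these libraries alone, which may be technical.

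Clustered histone genes are transcribed mainly in S phase, when new chromatin is built. Their mRNAs mostly end in a short stem-loop bound by SLBP rather than in a poly(A) tail. Variant histones such as H3.3, H2A.Z, macroH2A and H1.0 come from genes outside the clusters with ordinary polyadenylated mRNAs, are made outside S phase as well, and mark active or silent chromatin. H2A.X marks damaged chromatin when it is phosphorylated, which mRNA levels do not show. Some clustered and variant genes belong to the testis, where H1t, TH2A, TH2B and H3t replace the usual histones during sperm formation. Med26 is known to dock elongation complexes with Ell factors at genes that include the clustered histone genes.

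The stem-loop is shown because it marks the clustered genes and bears on how their mRNA enters a library. The sense strand was searched for a 16-base pattern: GG, any 3 bases, TT, any base, T, any base, A, any 3 bases, CC. All 6 bases of the left arm had to pair with the right arm. For histone genes the GENCODE M21 transcript matched to the RefSeq entry of the row used was searched, the longest if several matched. For all protein-coding genes it was the longest transcript of the gene, so the choice of transcript differs. The pattern was found in 46 of 67 clustered genes, in 1 of 16 variant genes searched, H2ax, and in 0.311% of all protein-coding genes. The 3 commonest forms, and the form of H3c8, follow, with the paired arms in capitals and the loop in lower case.
form in 26 histone genes: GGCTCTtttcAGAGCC
form in 7 histone genes: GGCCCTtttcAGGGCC
form in 6 histone genes, among them H1f6: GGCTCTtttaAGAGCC
H3c8: GGCTCTtcttAGAGCC
No match was found for H1f1, H1f5, H2ac1 or H2bc1, which says only that these letters are not in the transcript searched. H3f4 had no GENCODE transcript to search.

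Promoter windows of 300 bases (250 before and 50 after the gene start, RefSeq, GRCm38.p6, 5′ to 3′ on the gene's strand) are shown for 3 genes that had the widest changes after siRNA in NPCs. Capitals mark CCAAT, the octamer ATTTGCAT and TATAAA, searched on both strands. None of these patterns lies within another.
H1f6, chr13:23695561-23695860, plus strand: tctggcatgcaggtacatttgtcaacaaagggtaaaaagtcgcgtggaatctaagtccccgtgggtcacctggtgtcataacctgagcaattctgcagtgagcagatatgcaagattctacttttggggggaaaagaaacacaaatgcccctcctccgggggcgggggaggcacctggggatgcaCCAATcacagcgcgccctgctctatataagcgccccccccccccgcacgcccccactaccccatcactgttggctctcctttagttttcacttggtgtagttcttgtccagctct
H2ac1, chr13:23934187-23934486, plus strand: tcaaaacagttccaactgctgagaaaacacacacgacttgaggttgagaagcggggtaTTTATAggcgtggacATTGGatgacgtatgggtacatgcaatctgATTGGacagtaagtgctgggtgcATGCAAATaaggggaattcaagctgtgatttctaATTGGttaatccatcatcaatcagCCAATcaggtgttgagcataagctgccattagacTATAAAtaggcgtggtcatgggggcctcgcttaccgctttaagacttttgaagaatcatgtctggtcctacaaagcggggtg
H3f4, chr11:58961461-58961760, plus strand: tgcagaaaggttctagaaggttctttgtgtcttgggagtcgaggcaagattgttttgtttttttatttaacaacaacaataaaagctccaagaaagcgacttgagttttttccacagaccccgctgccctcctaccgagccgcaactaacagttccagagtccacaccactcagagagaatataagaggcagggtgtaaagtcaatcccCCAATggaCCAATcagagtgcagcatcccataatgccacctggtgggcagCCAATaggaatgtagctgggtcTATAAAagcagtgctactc
H2ac1 and its neighbour H2bc1 start on opposite strands, and the window of H2bc1 (chr13:23934107-23934406, minus strand) overlaps that of H2ac1. The H2ac1 window held 1 octamer, 4 CCAAT and 2 TATAAA, the H1f6 window 1 CCAAT, and the H3f4 window 3 CCAAT and 1 TATAAA. Over the promoters of clustered genes, CCAAT was present in 6 of 6 for H1, 18 of 18 for H2A, 16 of 16 for H2B, 10 of 10 for H3 and 3 of 12 for H4, against 37.4% of all 32851 promoters. The octamer was in 7 of 18 H2A and 6 of 16 H2B promoters, in none for H1, H3 and H4, and in 1.74% of all promoters. TATAAA was in 4 of 6 H1, 11 of 18 H2A, 8 of 16 H2B, 4 of 10 H3 and 8 of 12 H4 promoters, against 13.6% of all.

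Histone mRNA was among the most abundant RNA in the table. Values are RPKM, reads per kilobase of transcript per M (mega) mapped reads, so levels can be compared between genes of different length. Testing was limited to genes that reached 1 RPKM in 2 or more of the 10 libraries, which left 11956 genes and 77 histone genes, 66 clustered and 11 variant. Averaged over the 10 libraries, the median level was 418 RPKM for clustered genes, 29.2 RPKM for variant genes and 7.52 RPKM for all genes tested. Of the 100 genes with the highest mean level 46 were histone genes, and of the top 500, 66 were. The highest was H2bc18, with 1890 and 2522 RPKM in ESC control, 2449 and 2674 in ESC Cbx3 siRNA, 2837 and 3105 in NPC control, 2849 and 3140 in NPC Cbx3 siRNA and 2744 and 2946 in NPC Med26 siRNA. Linker genes H1f1, H1f3, H1f2 and H1f5 and the H4 genes H4c4 and H4c18 followed, each with a mean above that of every variant gene. Rmrp and Rpph1, RNAs that carry no poly(A) tail, were in the same libraries at 19346 to 34384 RPKM and 11414 to 15421 RPKM. The sources used here do not say whether poly(A) RNA was selected.

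**Figure D1:**
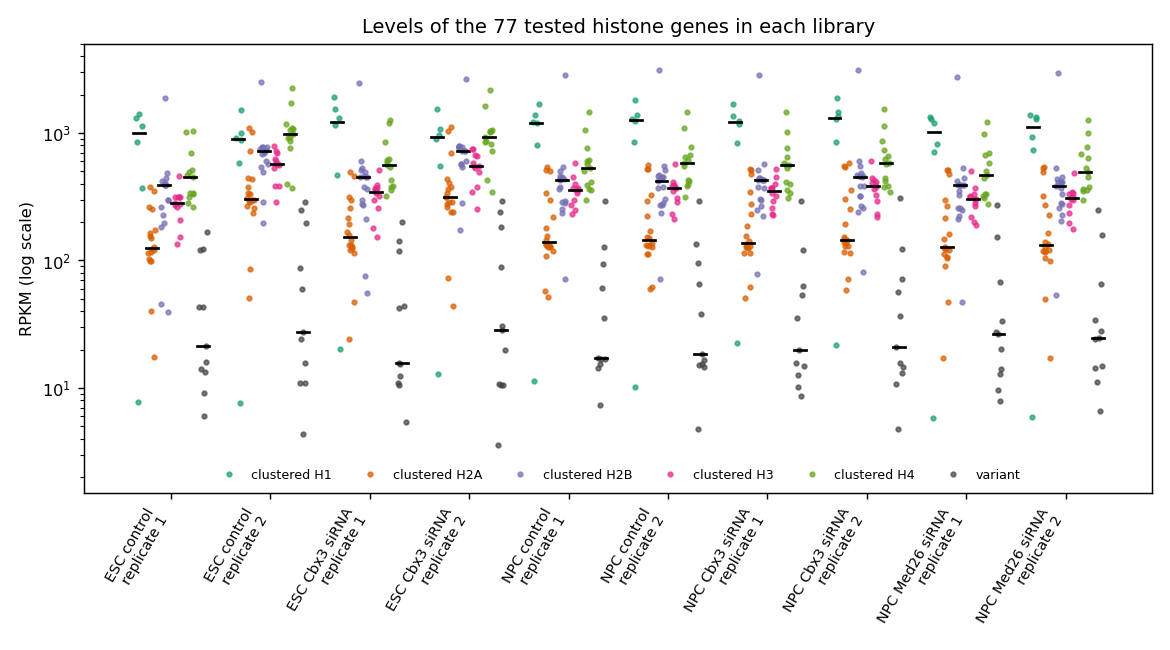
RPKM of the 77 tested histone genes in each of the 10 libraries, on a log scale. Each point is a gene, coloured by family, and each bar is the median of its family. In ESC replicates numbered 2 the core families H2A, H2B, H3 and H4 lie higher than in those numbered 1, and the median of the variant genes lies below those of the clustered families in every library.

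The 7 histone genes that were not tested are H1f7, H1f8, H2ab1, H2ab2, H2ab3, H2al2a and H2bc21. H2bc21 reached 0.694 RPKM in its highest library, and the other 6, which code for germline forms, reached at most 0.0645 RPKM. Among the tested germline genes H1f6, which codes for H1t, was the lowest, at 7.70 and 7.58 RPKM in ESC control and 11.3 and 10.1 RPKM in NPC control. Some near-identical genes cannot be told apart here: the values of H2bc23 and H4bc24 were identical in every library, and those of H2ac18 and H2ac19, and of H3c14 and H3c15, kept a constant ratio within 0.001. Counted once each, 74 tested genes remain. Other near-identical copies may share reads too.

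The targets of the siRNAs were checked first. Cbx3 was 9.37 and 9.65 RPKM in the NPC controls, then 0.425 and 0.248 RPKM with its own siRNA, and 14.0 and 56.4 RPKM in the ESC controls, then 1.01 and 1.96 RPKM with it. Med26 was 7.56 and 6.78 RPKM in the NPC controls, then 3.04 and 3.07 RPKM with Med26 siRNA. The NPC label met only part of its markers: Hes5, Zic1 and Fabp7 were below 1 RPKM in both libraries of every group, and the 10 NPC markers summed to 85.6 to 89.8 RPKM in NPC control, lower than the 104 to 153 RPKM in ESC control. The summed ESC markers were 563 to 577 RPKM in NPC control and 526 to 944 RPKM in ESC control. Such sums are set mostly by the most abundant markers, and single genes read otherwise in the fit of all 10 libraries described below. There the 7 NPC markers tested had a median log2 change of 0.58 from ESC to NPC control, with 2 called higher and 1 lower. The 10 ESC markers had a median of -1.89, with 6 called lower and 0 higher, where 16% of all genes were called. In bulk RNA, fewer cells of a type and less RNA per cell cannot be told apart. Feeder fibroblast markers, 12 genes, summed to 208 to 234 RPKM in ESC control and 92.9 to 100.1 RPKM in NPC control. Depth, estimated from the steps of low values, was 23.1 to 64.3 M reads, lowest in the ESC replicates numbered 2.

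The ESC libraries stood apart from their partners in the core histone genes. The clustered core genes (60 tested genes of H2A, H2B, H3 and H4) were higher in ESC control replicate 2 than in replicate 1 in 60 of 60 cases, by a median of 1.16 on the log2(RPKM + 1) scale. After Cbx3 siRNA in ESCs 59 of 60 were higher in replicate 2, by a median of 0.84, and only H4f16 was lower. This scale adds 1 RPKM before the logarithm, which understates changes of low genes. As a set the linker genes H1f1 to H1f5 did not share this gap, with medians of 0.10 and -0.30. Of these 5 genes, 3 were higher in replicate 2 in ESC control and 1 after Cbx3 siRNA. H1f4 was higher in both, by 0.65 and 0.24. Of all 11956 genes tested 5149 and 5943 were higher in replicate 2, with medians of -0.07 and -0.0024. Over 43 other coding genes spanning under 1000 bases the medians were 0.08 and 0.12. Part of these 43 genes did show such a gap. In each ESC group 12 of them were higher in replicate 2 by more than 1, against 3.58% and 4.44% of the longer coding genes.

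The widest gaps between ESC control libraries were in H2bc1, the TH2B gene, at 39.1 and 289 RPKM, and in H3f4, the H3t gene, at 9.08 and 59.6 RPKM. H3f3a, which codes for H3.3, was 16.01 and 87.0 RPKM. Macroh2a1, the gene of macroH2A.1, ran the other way with 43.1 and 24.4 RPKM, and H2az2, a gene of H2A.Z, with 43.1 and 27.3 RPKM. In NPCs the same 60 core genes differed between replicates by medians of only 0.04 in control, 0.11 after Cbx3 siRNA and 0.05 after Med26 siRNA. The clustered core genes are therefore set against each ESC library below. The part of depth in the ESC gap was not tested.

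**Figure D2:**
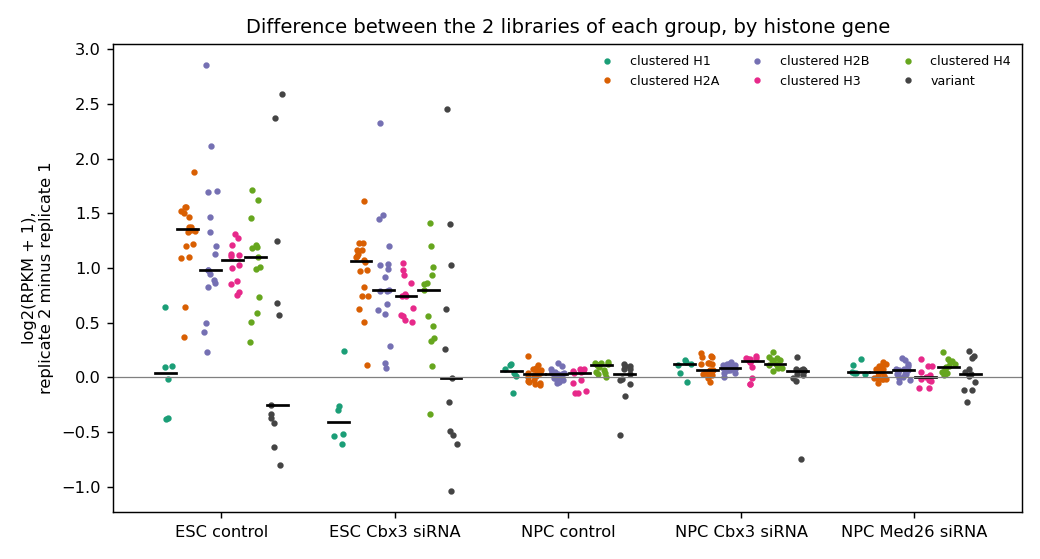
Difference between replicate 2 and replicate 1 of each group for the 77 tested histone genes, in log2(RPKM + 1), with bars at the medians of families. The points of clustered H2A, H2B, H3 and H4 lie mostly near 1 in both ESC groups and near 0 in the NPC groups, and the median of clustered H1 does not follow them in ESCs.

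Between the control groups the answer for core histones depended on the ESC library. Set against ESC replicate 1, the mean of NPC control was higher for 59 of the 60 clustered core genes (median 0.28). Set against ESC replicate 2, it was lower for 53 of 60 (median -0.82). Over all 11956 genes tested, the mean of NPC control was higher for 6045 against replicate 1 (median 0.0044). Against replicate 2 it was higher for 7150 and lower for 4806 (median 0.095). H1f1 to H1f5 were higher in NPC control against both ESC libraries, with medians of 0.32 and 0.48.

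In the fit of all 10 libraries with limma, a linear model with moderated variances, 3 of 77 histone genes passed an adjusted p of 0.05 between NPC and ESC control, against 16% of all genes tested (10.1% higher and 5.94% lower). Those higher in NPCs were H1f4 and H4f16, and the one lower was H2az1. The linker gene H1f4 was 369 and 578 RPKM in ESC control and 809.6 and 852 RPKM in NPC control, with no overlap (log2 change 0.85, SE 0.21, adjusted p = 0.0353). H4f16, an H4 gene outside the main clusters, rose from 316 and 395 RPKM to 606 and 647 RPKM (0.82, SE 0.17, adjusted p = 0.0213). H2az1, the other gene of H2A.Z, fell from 121 and 288 RPKM to 60.5 and 64.9 RPKM (-1.56, SE 0.42, adjusted p = 0.046). The change of H1f4 was 0.52 without ESC control replicate 1 and 1.17 without replicate 2, and that of H2az1 was -2.18 and -0.93. Without ESC control replicate 1, 2 genes passed (H1f0 and H2az1), without ESC control replicate 2, 8 did, all higher, and without either NPC control library none did.

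H3f4 was 93.2 and 95.004 RPKM in NPC control, above both ESC control libraries, and did not pass (1.94, SE 0.76, adjusted p = 0.121). The same held for H2bu2, an H2B gene on chromosome 11, at 45.1 and 199 RPKM in ESC control and 253 and 271 RPKM in NPC control (1.45, adjusted p = 0.154). H2ax was 168 and 250.4 RPKM in ESC control and 295 and 292 RPKM in NPC control (0.51, adjusted p = 0.104). Macroh2a1 was below both ESC values in NPC control, at 16.9 and 18.4 RPKM (-0.84, adjusted p = 0.14). The share of all genes without overlap between the control groups was not computed, so lack of overlap alone is not read as a result here. Without ESC control replicate 2, H3f4, H2bu2 and H2ax passed.

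The next comparison asked what Cbx3 siRNA did to histone genes in NPCs. The clustered genes stayed close to control: 1 of 66 rose, H1f6, none fell, and the median log2 change was 0.02, against 0.0070 for all genes tested. Among variant genes H1f0 rose and H3f4 and H2aj fell. In all, 4 of 77 passed (limma, 6 NPC libraries), against 13.1% of all genes (7.8% higher and 5.33% lower). An unadjusted p under 0.05 was seen for 9 of 77, against 3619 of all 11956 genes tested.

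H1f6 was 11.3 and 10.1 RPKM in the NPC controls, then 22.5 and 21.8 RPKM with Cbx3 siRNA. Both knockdown libraries were well above both controls (log2 change 0.99, SE 0.07, adjusted p = 0.00146). H1f0, the gene of the linker variant H1.0 that is common in cells that have stopped dividing, went from 16.8 and 16.5 RPKM to 20.0 and 20.9 RPKM (0.28, SE 0.06, adjusted p = 0.0375). H3f4 fell from 93.2 and 95.004 RPKM to 62.9 and 71.7 RPKM (-0.48, SE 0.07, adjusted p = 0.0101). H2aj, the gene of the H2A variant H2A.J, fell from 14.5 and 15.3 RPKM to 10.2 and 10.8 RPKM (-0.46, SE 0.08, adjusted p = 0.0181). The groups did not overlap for any of the 4.

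When 1 NPC library was left out, H1f6 passed each time. H3f4 also passed without either Cbx3 siRNA library and did not without NPC control replicate 1 or 2. H1f0 and H2aj passed in none of these 4 cases, so 1 histone gene was called without either control library and 2 without either Cbx3 siRNA library. In the fit of all 10 libraries none of the 77 passed.

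Of the other variant genes, 4 had both Cbx3 siRNA libraries below both controls without passing. They were H2az1 (60.5 and 64.9 RPKM against 53.8 and 56.5 RPKM, log2 change -0.18), H3f3a (15.3 and 14.6 against 12.7 and 13.2 RPKM, -0.19), H3f3b (128 and 135 against 122 and 124 RPKM, -0.09) and Macroh2a1 (16.9 and 18.4 against 14.9 and 14.5 RPKM, -0.25). Their adjusted p ranged from 0.0879 to 0.309. Together with H3f4 and H2aj this made 6 of 11 variant genes with both libraries below both controls, and 1 of 66 clustered genes, H2bc13, did the same, against 26.5% of all genes tested. H2ax, H2az2, Macroh2a2 and H1f10 had overlapping groups and log2 changes of 0.04, -0.02, -0.04 and 0.11.

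The testis pair H2ac1 and H2bc1 lay above control in both Cbx3 siRNA libraries and did not pass. H2ac1 was 52.1 and 59.6 RPKM in the controls, then 62.3 and 71.3 RPKM with Cbx3 siRNA (0.25, SE 0.09, adjusted p = 0.114). H2bc1 was 71.5 and 70.9 RPKM against 78.0 and 81.8 RPKM (0.16, SE 0.07, adjusted p = 0.171). In all, 15 of 66 clustered genes had both libraries above both controls, against 30.1% of all genes.

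In ESCs no histone gene passed after Cbx3 siRNA. The limma fit of 10 libraries called 0 of 77, and 0% of all genes, with 2 histone genes and 645 of all genes at an unadjusted p under 0.05. H1f6 was 7.70 and 7.58 RPKM in the ESC controls, then 20.3 and 12.9 RPKM with Cbx3 siRNA, without overlap (log2 change 0.997, SE 0.18, adjusted p = 0.361). Its log2 difference was 1.29 between the libraries numbered 1 and 0.70 between those numbered 2. H1f1, H1f5, H2bc14 and H4f16 also had both siRNA libraries above both controls. These made 5 of 66 clustered genes, against 7.86% of all genes. H1f0 had both below, at 14.1 and 11.0 RPKM against 10.6 and 10.6 RPKM (-0.22).

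The core histones again followed the library. Between the libraries numbered 1, all 60 clustered core genes were higher after Cbx3 siRNA (median 0.27). Between those numbered 2, 25 of 60 were higher (median -0.02). Over all 11956 genes tested, 4382 were higher between the libraries numbered 1 (median -0.06) and 6132 between those numbered 2 (median 0.0068). Whether the response to Cbx3 siRNA differed between ESCs and NPCs was tested as an interaction, and limma called 0 of 77 histone genes and 0 of 11956 genes, with 1 and 233 at an unadjusted p under 0.05.

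Med26 siRNA was followed by lower levels over most clustered histone genes in NPCs, small for most and large for a few. Of the 66 clustered genes 10 fell and none rose, and among the 11 variant genes 2 fell and 2 rose. That made 14 of 77 called, against 13.4% of all genes, with 12 of 77 lower, against 6.46%, and 2 of 77 higher, against 6.9%. The median log2 change of clustered genes was -0.17 and that of all genes tested was -0.0014. Both Med26 siRNA libraries lay below both controls for 59 of 66 clustered genes, against 29.8% of all genes tested. Of the 60 clustered core genes, 58 were lower between libraries numbered 1 (median -0.16) and 56 between those numbered 2 (median -0.16). Of all 11956 genes tested 5948 and 5957 were lower. These counts use the same libraries and follow largely from the lack of overlap, so they are not a separate check. Other coding genes under 1000 bases in span were also lower, in 29 and 30 of 43 cases, with medians of -0.10 and -0.11, and Rmrp was 26926 and 26717 RPKM in the controls, then 19346 and 20633 RPKM with Med26 siRNA. The part of gene length and of RNA without poly(A) tails in the histone values was not tested.

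**Figure D3:**
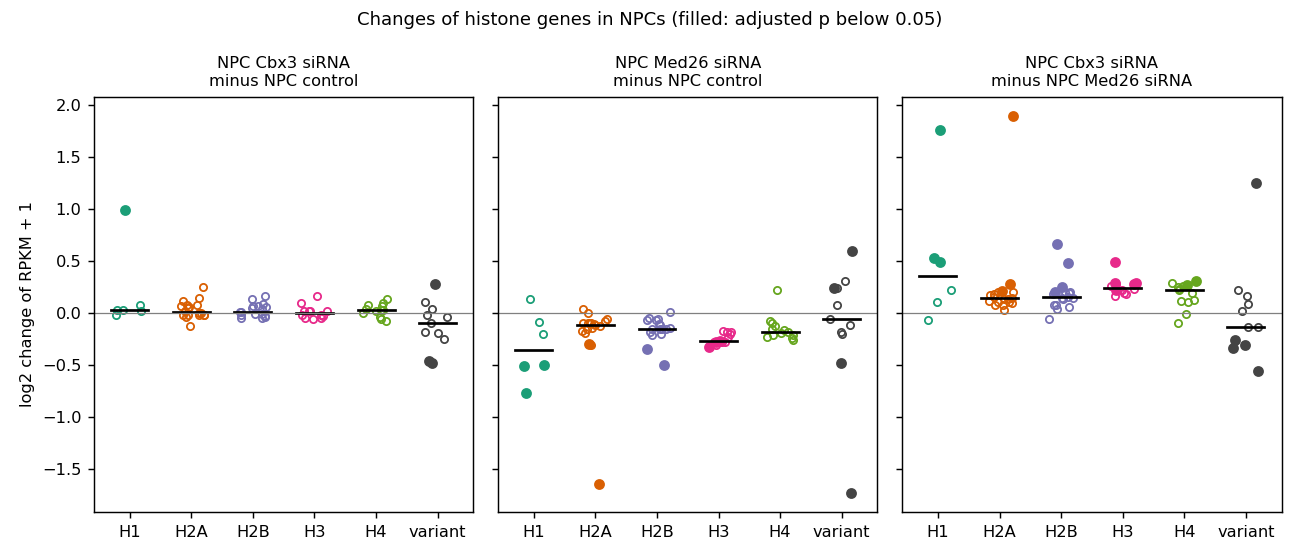
Log2 change of RPKM + 1 for the 77 tested histone genes in the 3 NPC comparisons, by family. Filled points passed an adjusted p of 0.05 and bars are medians. After Cbx3 siRNA the clustered families centre on 0, and after Med26 siRNA their medians lie between -0.35 for H1 and -0.11 for H2A, with H2ac1 and H3f4 lowest.

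The testis genes H3f4, H2ac1 and H1f6 had the largest falls among histone genes, and the testis gene H2bc1 fell too, a grouping made after the values were seen. H3f4 was 93.2 and 95.004 RPKM in the controls, then 27.4 and 28.1 RPKM with Med26 siRNA (log2 change -1.73, SE 0.07, adjusted p = 0.00059). H2ac1, the TH2A gene, fell from 52.1 and 59.6 RPKM to 17.3 and 17.1 RPKM (-1.64, SE 0.09, adjusted p = 0.00102). Its partner across the shared promoter, H2bc1, fell less, from 71.5 and 70.9 RPKM to 47.2 and 53.3 RPKM (-0.50, SE 0.07, adjusted p = 0.0103). H1f6 fell from 11.3 and 10.1 RPKM to 5.78 and 5.91 RPKM (-0.77, SE 0.07, adjusted p = 0.00395). Every one of these 4 had no overlap with control. H2ac1 and H2bc1 overlap the RNA gene Gm33516, and H3f4 overlaps Trim17. Without strand, reads from such overlaps cannot be told apart, and Trim17 was at most 0.0929 RPKM in every library.

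**Figure D4:**
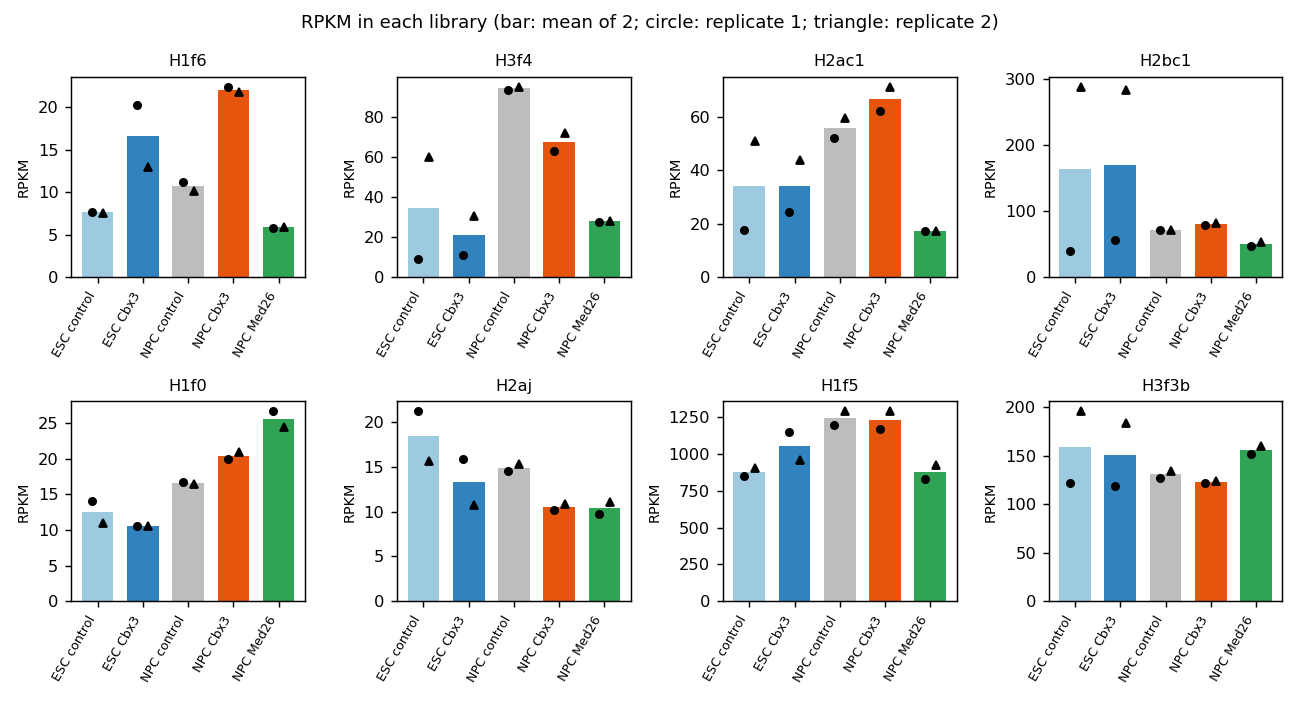
RPKM of 8 histone genes in each group, on linear axes that start at 0. Bars are means of 2 libraries, circles replicate 1 and triangles replicate 2. H1f6 is highest after Cbx3 siRNA and lowest after Med26 siRNA in NPCs, H3f4 and H2ac1 are lowest in NPCs after Med26 siRNA, and H2bc1 shows the gap between ESC replicates.

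Among linker genes H1f1 and H1f5 fell, and the other abundant ones did not pass. H1f1 went from 1684 and 1830 RPKM to 1194 and 1289 RPKM (-0.50, SE 0.09, adjusted p = 0.0218). H1f5 went from 1198 and 1292 RPKM to 828 and 928 RPKM (-0.51, SE 0.09, adjusted p = 0.021). H1f4 was 809.6 and 852 RPKM against 712 and 735 RPKM (-0.20, adjusted p = 0.088) and H1f3 1386 and 1396 RPKM against 1289 and 1326 RPKM (-0.09, adjusted p = 0.463). H1f2 ran the other way, at 1220.1 and 1254 RPKM against 1343 and 1382 RPKM (0.14, adjusted p = 0.254). H1f1 and H1f5 are the linker genes of the cluster in which the stem-loop pattern was not found. Over all tested histone genes the median change was -0.15 for 47 with the pattern and -0.17 for the other 30. Those 30 include H3f4, which had no transcript to search, and most of the variant genes. The comparison therefore does not separate the stem-loop from the class of gene.

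Of the core families, H3 was the most uniform. All 12 clustered H3 genes had both Med26 siRNA libraries below both controls (log2 changes -0.32 to -0.17, median -0.27), and 3 passed. H3c8 fell from 368 and 386 RPKM to 304 and 299 RPKM (-0.32, adjusted p = 0.0343), with H3c13 (-0.28, adjusted p = 0.0311) and H3c2 (-0.27, adjusted p = 0.0455). H4 had a median of -0.19 and none of 13 passed. An unadjusted p under 0.05 was seen for 8 of the 13, against 3755 of all 11956 genes tested. H2A had a median of -0.11 and H2B of -0.15, with 2 of 18 and 2 of 17 called.

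H2bc9 fell from 287 and 282 RPKM to 222 and 226 RPKM (-0.35, SE 0.05, adjusted p = 0.0136). H2ac10 fell from 119 and 113 RPKM to 90.4 and 98.4 RPKM (-0.30, SE 0.06, adjusted p = 0.0268). H2ac10, H3c8, H2bc9 and H3c7 are consecutive coding genes on chromosome 13, and the fourth of them, H3c7, was 273 and 288 RPKM in the controls, then 218 and 234 RPKM with Med26 siRNA (-0.31, adjusted p = 0.0506). The genes on either side of this run, H4c8 and H4c6, had log2 changes of -0.07 (adjusted p = 0.667) and -0.19 (adjusted p = 0.159). The clustered genes without this fall in both libraries were H1f2, H2ac20, H2aw, H2bc18, H2bu2, H4c8 and H4f16. H4f16 had both libraries higher, at 606 and 647 RPKM in the controls, then 697 and 771 RPKM with Med26 siRNA (0.23, adjusted p = 0.151). H2bu2, H2aw and H3f4 follow each other on chromosome 11 with Trim17 as the one other coding gene among them, and H2aw (500.3 and 525 RPKM against 510.2 and 539.6 RPKM) and H2bu2 (253 and 271 RPKM against 249 and 278 RPKM) overlapped with control while H3f4 had the largest fall of all.

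Variant genes went both ways after Med26 siRNA. H1f0 rose from 16.8 and 16.5 RPKM to 26.7 and 24.5 RPKM (0.59, SE 0.06, adjusted p = 0.00542). H3f3b, the higher expressed of the H3.3 genes, rose from 128 and 135 RPKM to 151 and 160 RPKM (0.24, SE 0.06, adjusted p = 0.0374), and H3f3a did not pass (-0.06, adjusted p = 0.538). H2aj fell from 14.5 and 15.3 RPKM to 9.71 and 11.1 RPKM (-0.48, SE 0.08, adjusted p = 0.018). Macroh2a1 was 16.9 and 18.4 RPKM in the controls, then 20.2 and 24.1 RPKM with Med26 siRNA, without overlap (0.31, adjusted p = 0.0782). H2ax (-0.18, adjusted p = 0.109) and Macroh2a2 (-0.20, adjusted p = 0.186) did not pass, and neither did H2az1 (0.08), H2az2 (-0.11) or H1f10 (0.24).

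Leaving out 1 library lowered the number of calls after Med26 siRNA. H3f4, H2ac1, H1f6 and H1f0 passed without any 1 of the 4 libraries. Those 4 were the calls without NPC control replicate 1, without replicate 2 and without Med26 siRNA replicate 1, and without Med26 siRNA replicate 2 H2aj and H2bc1 passed as well, which made 6. The 10-library fit called none.

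Both siRNA groups in NPCs are set against the same control libraries, so the direct contrast of Cbx3 and Med26 siRNA tests their difference. It called 22 of 77 histone genes, 18 higher after Cbx3 siRNA and 4 lower, against 18.3% of all genes (10.4% higher and 7.87% lower). Clustered genes gave 17 higher and none lower of 66, and their median difference was 0.19, against 0.0098 for all genes. In 56 of 66 both Cbx3 siRNA libraries were above both Med26 siRNA libraries, against 32.9% of all genes.

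The widest differences were again in the testis genes: H2ac1 (62.3 and 71.3 RPKM after Cbx3 siRNA, 17.3 and 17.1 RPKM after Med26 siRNA, log2 difference 1.89, SE 0.09, adjusted p = 0.000422), H1f6 (22.5 and 21.8 RPKM against 5.78 and 5.91 RPKM, 1.75, SE 0.07, adjusted p = 0.000398) and H3f4 (62.9 and 71.7 RPKM against 27.4 and 28.1 RPKM, 1.25, SE 0.07, adjusted p = 0.000763). H1f6 is the only histone gene that passed against control in opposite directions after the 2 siRNAs. H2bc1 differed by 0.66 (adjusted p = 0.0036), H1f1 by 0.53 (adjusted p = 0.0138), H1f5 by 0.49 (adjusted p = 0.0171), H3c8 by 0.49 (adjusted p = 0.00841) and H2bc9 by 0.48 (adjusted p = 0.00431).

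The 4 genes lower after Cbx3 than after Med26 siRNA were all variants: H1f0 (-0.31, adjusted p = 0.0234), H2az1 (-0.26, adjusted p = 0.0283), H3f3b (-0.34, adjusted p = 0.0113) and Macroh2a1 (-0.55, adjusted p = 0.0122). Macroh2a1 was 14.9 and 14.5 RPKM after Cbx3 siRNA and 20.2 and 24.1 RPKM after Med26 siRNA. H2aj, which fell after both, did not differ between them by this test (0.02, SE 0.08, adjusted p = 0.919). Without NPC Cbx3 siRNA replicate 1 or 2, 10 and 6 genes passed, and without NPC Med26 siRNA replicate 1 or 2, 6 and 7. H1f6, H2ac1, H3f4, H2bc1 and H2bc9 passed in all 4 cases, and H1f6 alone passed in the fit of all 10 libraries.

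Genes that make, process and place histone mRNA and protein were described from lists of the pathway, whose counts are to be read against the 13.1% of all genes called after Cbx3 siRNA and the 13.4% called after Med26 siRNA. Of 25 genes of histone transcription and 3′ end processing, 2 rose after Cbx3 siRNA in NPCs, Snrpb (0.28), a core snRNP protein, and Hinfp (0.34), a factor of H4 gene promoters, and none passed after Med26 siRNA. Slbp, the stem-loop binding protein, was 40.5 and 46.1 RPKM in NPC control, 38.3 and 40.0 RPKM after Cbx3 siRNA and 42.9 and 45.9 RPKM after Med26 siRNA and did not pass in either. Npat, the coactivator of clustered histone genes, was 6.90 and 6.50 RPKM in the controls, then 9.20 and 7.65 RPKM with Med26 siRNA (0.29, adjusted p = 0.11). A list of 23 tested elongation genes was built around complexes with Ell factors, and not all of them, Ssrp1 for one, belong to those complexes. In this list Zc3h8 rose and Ell3 fell after Cbx3 siRNA. Aff4 (0.30) and Ccnt1 (0.30) rose and Ssrp1 (-0.39) fell after Med26 siRNA.

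Among 27 histone chaperones and exchange factors, Chaf1b fell after Cbx3 siRNA (-0.24), and Med26 siRNA was followed by a rise of Atrx (0.37) and falls of Anp32e, Cenpa and Mcm2. Anp32e, which removes H2A.Z from chromatin, fell from 38.4 and 37.7 RPKM to 19.3 and 21.0 RPKM (-0.89, SE 0.07, adjusted p = 0.00197). Cenpa, the centromeric H3 variant gene that was not among the symbols chosen, fell from 68.8 and 69.2 RPKM to 51.1 and 54.7 RPKM (-0.38, SE 0.06, adjusted p = 0.0137). Of 27 S phase genes, 3 rose after Med26 siRNA (Ccne2 0.55, Pola1 0.35, Cdc6 0.26) and Mcm2 fell (-0.23), with a list median of -0.02, and 2 rose after Cbx3 siRNA (Ccne2 0.67, Dut 0.33). Of 18 G2 and mitosis genes Plk1 (-0.39) and Birc5 (-0.21) fell after Med26 siRNA and none passed after Cbx3 siRNA. Summed NPC markers were 65.2 to 65.4 RPKM after Cbx3 siRNA and 100.6 to 101.4 RPKM after Med26 siRNA, against 85.6 to 89.8 RPKM in NPC control. Summed ESC markers were 442 to 467 RPKM after Cbx3 siRNA and 554 to 584 RPKM after Med26 siRNA, and summed feeder markers were 113 to 126 RPKM and 109 to 119.7 RPKM. Their part in the histone values was not tested.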

How the data were processed

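RNA was sequenced from 10 libraries in 5 groups of 2. The deposited values are RPKM, which the authors computed per RefSeq accession. Mapping with TopHat2 2.08 to mm9 is named per the submitters' processing notes, and per the labels' protocols RNA was taken with Trizol and made into libraries by a TruSeq RNA kit. The sources used here do not give how reads were counted, by which annotation, whether by strand, or how reads matching several places were treated. The table has 35860 rows and 34720 accessions, of which 99.07% of rows took a gene symbol from RefSeq (GRCm38.p6), and the row with the highest mean RPKM stood for each gene.

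The limma package (3.58.1, R 4.3.3) was run on log2(RPKM + 1) using a trend on intensity, two-sided tests, no block and Benjamini-Hochberg adjustment over all 11956 genes at 0.05. NPC comparisons used the 6 NPC libraries (3 residual degrees of freedom), and the others all 10 (5). Count models were not used, since only 71.03% to 74.51% of low values lay within 0.1 of a whole number of steps. The fit was tested on simulated data. Histone genes, gene lists and the choice of fit were made with earlier results of these data known. Named were the siRNA targets, the genes with the highest levels, all variant genes and up to 15 called genes in each direction. Groups came from the labels, and alternatives were other pseudocounts, filters, scaling, fits and left-out libraries.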

Additional observations from a re-analysis of the deposited data

How the results depend on the processing

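No histone gene called in the main fit changed direction under any alternative that was run, within the comparison that called it. The share of all genes called under each alternative is not given here. The counts of called histone genes moved as follows, and are not to be set against the shares of the main fit. With no filter on low values they were 2 (Cbx3 siRNA against control in NPCs, main count 4), 5 (Med26 siRNA against control, 14), 7 (Cbx3 against Med26 siRNA, 22) and 0 (NPC against ESC control, 3). With all 10 libraries in 1 fit the NPC comparisons gave 0, 0 and 1, and with the 4 control libraries alone NPC against ESC control gave 0. Leaving out 1 library gave 1 to 2, 4 to 6, 6 to 10 and 0 to 8 in the same order, and 0 for Cbx3 siRNA in ESCs. With a pseudocount of 0.1, a minimum of 5 RPKM, median centring or summed accessions each count stayed within 1.5 times.

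With the replicate block the counts were 12, 51 and 56 in the NPC comparisons, without the share of all genes called in that fit beside them. They were 3 for Cbx3 siRNA in ESCs (H1f6, H2aj and H2bc14), or 1 (H1f6) in the 4 ESC libraries alone with the block. For NPC against ESC control the block fit gave 35, but it compared the levels fitted for libraries numbered 1, not the group means. Its changes therefore differ from the main ones, as for H2bc1 (0.68 against -0.58), and the 35 is not a block-adjusted form of the main count. The labels pair no libraries by number. Deviations of same-numbered libraries correlated at 0.89 between the ESC groups and at 0.42 to 0.46 between the NPC groups, over 11956 genes. The interaction gave 0 in every fit. With 2 libraries a group, the median residual SD was 0.083 in NPC libraries and 0.156 in all 10, which limits what the ESC comparisons can show. Depth is known only from steps of low values.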

Other observations

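Of the 9 histone pseudogenes that were left out, H2af-ps2, H2bu1-ps and Macroh2a3 had tested values. H2bu1-ps was 62.3 and 67.5 RPKM in the NPC controls, then 80.7 and 78.1 RPKM with Cbx3 siRNA (log2 change 0.29, limma adjusted p = 0.0254), and 66.8 and 65.2 RPKM after Med26 siRNA (0.03, adjusted p = 0.807). H2af-ps2 was 19.0 and 86.1 RPKM in the ESC controls, then 25.3 and 85.3 RPKM with Cbx3 siRNA in ESCs, a gap between libraries of the same kind as that of the clustered core genes, and 23.7 to 29.5 RPKM in the 6 NPC libraries. Macroh2a3 did not exceed 2.41 RPKM in any library.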
